A study of Homo sapiens with 15 samples.

Results

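The mRNA levels of the genes that build the replicative DNA polymerases and their sliding clamp were studied in LNCaP cells, an established androgen-sensitive prostate cancer cell line. The 10 genes were chosen by symbol from the 17272 genes of the expression table. No measured value served as a criterion, but earlier results of these data were known. They are the 4 subunits of polymerase alpha-primase (POLA1, POLA2, PRIM1 and PRIM2), 3 subunits of polymerase delta (POLD1, POLD2 and POLD3), 2 subunits of polymerase epsilon (POLE and POLE2) and the clamp PCNA. All 10 had a row in the table and passed the filter on low values. Cells of both groups were starved for 2 days in medium with charcoal-stripped serum, which is depleted of steroid hormones, and were then stimulated with the synthetic androgen R1881 at 1 nM. In 10 libraries the cells received R1881 and the solvent DMSO, and in 5 libraries they received R1881 and the androgen receptor inhibitor enzalutamide at 2 µM, with harvest after 22 h. Cells without R1881 are not part of the comparison, so the values compare androgen-stimulated cells of a single line with and without the inhibitor. The methods call the libraries biological replicates, while the labels do not say whether they came from separate cultures, so p-values measure the spread between these libraries.

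Polyadenylated RNA was sequenced with single-end reads, and expression is given in the deposited unit, CPM (reads of a gene scaled to a common library size). The library sizes had been rescaled before deposit. Between 15830745 and 25416052 reads per library lay behind these values, and the lowest counts among the 10 genes were 77 reads, for POLD1 and for POLE2. Groups were compared by limma on log2(CPM + 0.5). The fit held the 17046 genes whose CPM averaged 0.5 or more, p-values were adjusted by Benjamini-Hochberg over these genes, and the threshold was 0.05. On this scale the change of a gene with few reads comes out too small. The treatment was checked on 3 androgen-induced genes, for which the log2 fold change with enzalutamide was -4.87 (KLK2), -3.56 (TMPRSS2) and -4.99 (FKBP5). All 8 markers of luminal prostate cells were measured. Of 3 basal markers only KRT14 had a row, at a CPM of at most 1.44 in any library, and TP63 and KRT5 were not analysed here. Of 8 stromal, endothelial and blood cell markers, only COL1A1, ACTA2 and VWF had a row. They summed to 10.4 to 14.8 CPM with R1881 + DMSO and to 14.2 to 19.7 with R1881 + enzalutamide. COL1A1 and VWF were called higher with enzalutamide (log2 fold change 0.69 and 0.28, adjusted p = 9.33e-05 and 0.00526 from limma), and ACTA2 did not pass. COL1A2, PECAM1, PTPRC, CD3E and CD68 were not analysed here. In the labels the libraries carry numbers of unstated meaning, 51 to 55 and 71 to 75 with R1881 + DMSO and 81 to 85 with R1881 + enzalutamide. No series of numbers holds both treatments, so a series and a treatment cannot be told apart. The libraries differed in a trend with GC content. It is given as Spearman's rho across 14489 genes between a gene's GC content and its deviation from the mean of all 15 libraries. Because this mean spans both treatments, rho also holds any GC-linked difference between them. This correlation was 0.60, 0.43 and 0.33 in libraries 73, 74 and 83, and of the opposite sign in libraries 51, 52 and 53 (-0.31, -0.44 and -0.37).

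During S phase, polymerase alpha-primase lays down a short RNA-DNA primer, which replication factor C recognises in order to load the ring-shaped clamp PCNA around the DNA. Polymerase epsilon then extends the leading strand and polymerase delta the lagging strand, where each Okazaki fragment is primed, extended, trimmed and ligated. The genes of this machinery are known as targets of E2F transcription factors, which act as cells enter S phase.

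Promoter windows of RefSeq (GRCh38.p14, 250 bases before and 50 bases from the start) matched 9 of the 10 genes, all but POLD3. An E2F-like motif, spelled as TTTCGCGC, TTTGGCGC, TTTCCCGC or TTTGCCGC on either strand, was found in 4 of these 9 windows and in 4.57% of 15317 windows of protein-coding genes. The 4 matches are given with 11 bases on each side and the motif in capitals, read 5′ to 3′ along the gene's strand.
POLA1, chrX:24693770-24693799, plus strand: gtcatcacaggGCGCCAAAcgcgcgtccgc
POLA2, chr11:65261898-65261927, plus strand: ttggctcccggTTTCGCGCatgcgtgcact
POLE, chr12:132687342-132687371, minus strand: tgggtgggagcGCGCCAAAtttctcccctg
POLE2, chr14:49688201-49688230, minus strand: ctgcggcggtgGCGCCAAAtcgcaaatatg
Counted with the RefSeq start as 0, the motif lay at -137 to -130 in POLA1, at -53 to -46 in POLA2, at -18 to -11 in POLE and at -5 to 2 in POLE2. In GENCODE v44 the POLA1 stretch lies in no exon, 15 of the 30 bases of the POLA2 stretch lie in an annotated exon, and the POLE and POLE2 stretches lie in annotated exons. POLA2 holds TTTCGCGC, and the other 3 hold GCGCCAAA, the reverse complement of TTTGGCGC.

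The longer stretches are the parts of the window before the start that lie in no annotated exon. They are shown for PRIM2, PCNA and POLA1, which had the lowest log2 fold changes of the 10 genes, and for POLE, which did not pass the test. Capitals mark the E2F-like motif, CCAAT or its reverse complement ATTGG, and GGGCGG or its reverse complement CCGCCC.
PRIM2, chr6:57317380-57317623, plus strand: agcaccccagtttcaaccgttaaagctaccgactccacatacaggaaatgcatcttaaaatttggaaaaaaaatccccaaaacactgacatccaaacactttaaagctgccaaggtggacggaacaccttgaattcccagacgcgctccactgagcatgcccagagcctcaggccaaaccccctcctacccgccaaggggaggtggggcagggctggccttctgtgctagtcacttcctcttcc
PCNA, chr20:5119959-5120208, minus strand: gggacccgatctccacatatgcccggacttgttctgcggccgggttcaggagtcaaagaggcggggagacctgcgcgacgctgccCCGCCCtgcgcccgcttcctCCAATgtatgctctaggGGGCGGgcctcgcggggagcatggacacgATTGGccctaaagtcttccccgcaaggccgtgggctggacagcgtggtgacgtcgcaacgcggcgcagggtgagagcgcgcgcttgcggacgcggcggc
POLA1, chrX:24693668-24693872, plus strand: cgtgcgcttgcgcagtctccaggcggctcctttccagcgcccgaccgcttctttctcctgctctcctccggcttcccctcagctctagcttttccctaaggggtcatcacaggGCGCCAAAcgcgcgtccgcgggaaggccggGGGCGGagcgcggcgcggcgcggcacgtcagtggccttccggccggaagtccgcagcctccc
POLE, chr12:132687377-132687586, minus strand: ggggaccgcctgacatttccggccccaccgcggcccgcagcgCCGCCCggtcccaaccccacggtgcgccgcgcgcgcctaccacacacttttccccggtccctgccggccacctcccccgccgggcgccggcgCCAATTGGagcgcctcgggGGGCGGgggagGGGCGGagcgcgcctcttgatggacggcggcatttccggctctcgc
The PRIM2 stretch holds none of these motifs. PCNA holds CCAAT at -145 to -141, its reverse complement at -99 to -95 and GGGCGG on both strands, and POLE holds CCAAT on both strands at overlapping positions between -110 and -103. Over the whole windows CCAAT was found in 5 of the 9 genes and in 36.6% of all windows, and GGGCGG in 6 of the 9 genes and in 61.8% of all windows. The motif TTTGAA, known as the cell cycle genes homology region, was in none of the 9 windows and in 11.6% of all windows. The full palindromic androgen response element was in none of the 15317 windows.

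With enzalutamide 9 of the 10 genes were lower (limma, adjusted p under 0.05), and POLE did not pass. Among all genes tested, 32.7% were called lower and 29.8% higher, so that 62.5% passed in either direction. The median log2 fold change was -0.69 over the 10 genes and -0.01 over all genes tested. None of the 10 genes was lower by 2-fold or more, which held for 4.19% of all genes. For 6 of the 10 genes (POLA1, POLA2, PRIM1, PRIM2, POLE2 and PCNA) the highest R1881 + enzalutamide library was below the lowest R1881 + DMSO library, as for 20.1% of all genes, while 17.1% lay apart in the other direction. The summed CPM of the 10 genes ranged from 517 to 570 with R1881 + DMSO and from 357 to 397 with R1881 + enzalutamide.

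**Figure D1:**
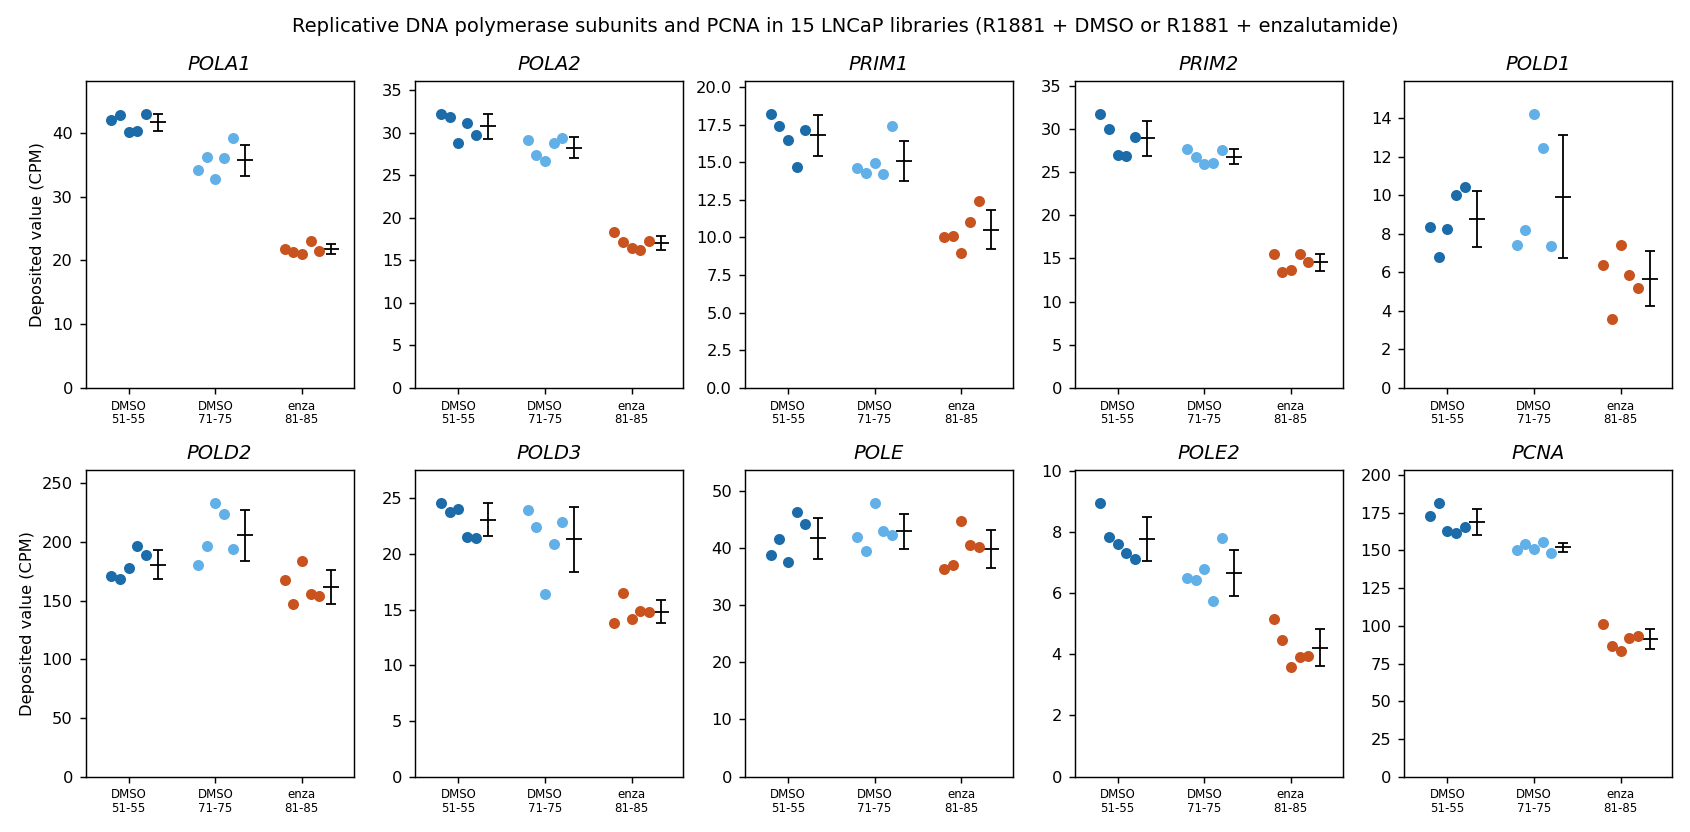
Deposited CPM (vertical axis, from 0) of each of the 10 genes in the 15 libraries, grouped on the horizontal axis as R1881 + DMSO libraries 51-55, R1881 + DMSO libraries 71-75 and R1881 + enzalutamide libraries 81-85. Points are libraries and bars give the mean ± SD (n = 5). The R1881 + enzalutamide points lie apart below the others for POLA1, POLA2, PRIM1, PRIM2, POLE2 and PCNA and overlap with them for POLD1, POLD2, POLD3 and POLE.

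All subunits of polymerase alpha-primase decreased. POLA1 (chrX:24693873-24996986, plus strand) encodes the catalytic subunit that extends the RNA primer with DNA. Its CPM ranged from 32.8 over a median of 39.7 to 43.0 with R1881 + DMSO, and was 21.8, 21.4, 21.0, 23.1 and 21.5 in R1881 + enzalutamide libraries 81 to 85. The groups did not overlap, and the lowest R1881 + DMSO value was that of library 73. The log2 fold change of POLA1 was -0.81 (SE 0.061, adjusted p = 2.67e-10 from limma), a decrease of the median by 45.8%. POLA2 (chr11:65261913-65305959, plus strand), the regulatory B subunit, ranged from 26.6 over 29.3 to 32.2 CPM with R1881 + DMSO and was 18.3, 17.1, 16.5, 16.2 and 17.3 with R1881 + enzalutamide. The libraries of the treatments lay apart here as well, with a narrow spread within each. Its log2 fold change was -0.77 (SE 0.050, adjusted p = 2.30e-11 from limma).

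The primase subunits showed the smallest and the largest decrease within this complex. PRIM1 (chr12:56730438-56752374, minus strand) is the catalytic subunit that makes the RNA primer. It ranged from 14.2 over 15.7 to 18.2 CPM with R1881 + DMSO and was 10.1, 10.1, 8.98, 11.1 and 12.4 in libraries 81 to 85. Library 85 was the highest of these and still below every R1881 + DMSO library. The log2 fold change of PRIM1 was -0.58 (SE 0.077, adjusted p = 1.32e-06 from limma). PRIM2 (chr6:57314805-57646850, plus strand), the regulatory primase subunit, ranged from 25.9 over 27.3 to 31.8 CPM with R1881 + DMSO and was 15.5, 13.5, 13.6, 15.6 and 14.6 with R1881 + enzalutamide. No library of either treatment came near the range of the other. Its log2 fold change of -0.91 (SE 0.055, adjusted p = 5.29e-12 from limma) was the lowest of the 10 genes. The annotation holds a near copy of PRIM2, PRIM2BP, which had no row in the table, and reads that fit both copies could have been lost or shared. PRIM1 shares 139 exonic bases with NACA on its own strand and 132 with HSD17B6 on the opposite strand. Annotated genes without a symbol overlap more on the same strand. They share 2012 exonic bases with POLA2 (16.8% of its exonic length), 426 with POLD1 (8.63%) and 362 with PRIM1 (10.9%). The sources used here do not say whether counting used the strand.

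The polymerase delta subunits decreased by different amounts, and each overlapped between the treatments. POLD1 (chr19:50384204-50418018, plus strand) encodes the catalytic subunit with the proofreading exonuclease. Its CPM ranged from 6.78 over 8.32 to 14.2 with R1881 + DMSO and was 6.37, 3.58, 7.40, 5.84 and 5.17 in libraries 81 to 85. The R1881 + DMSO libraries 73 and 74 were the highest, and library 83 was the highest with R1881 + enzalutamide and lay within the range of R1881 + DMSO. The log2 fold change of POLD1 was -0.67, with the largest standard error of the 10 genes (SE 0.158, adjusted p = 0.000957 from limma). POLD2 (chr7:44114631-44124358, minus strand), the accessory subunit that joins the catalytic subunit to POLD3, ranged from 168 over 191 to 233 CPM with R1881 + DMSO and was 168, 147, 183, 155 and 154 with R1881 + enzalutamide. Libraries 73, 74 and 83 were again the highest of their groups, and 6 of the 10 R1881 + DMSO libraries lay above every R1881 + enzalutamide library. Its log2 fold change was -0.25 (SE 0.068, adjusted p = 0.00301 from limma). With each library scaled to the same total, in which the median over all genes moved from -0.01 to 0.07 and the lower share of calls from 52.3% to 39.3%, POLD2 no longer passed (log2 fold change -0.16, adjusted p = 0.0614 from limma). The annotation also holds a processed copy of POLD2, POLD2P1, with a row of its own.

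POLD3 (chr11:74493851-74669117, plus strand), the subunit that carries the main PCNA-binding motif of the complex, ranged from 16.4 over 22.6 to 24.6 CPM with R1881 + DMSO and was 13.8, 16.5, 14.1, 14.9 and 14.8 in libraries 81 to 85. The ranges overlapped through a single pair of libraries, since library 73 (16.4) lay just below library 82 (16.5). The log2 fold change of POLD3 was -0.56 (SE 0.075, adjusted p = 1.58e-06 from limma). Without libraries 73, 74 and 83 it was -0.61.

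The polymerase epsilon subunits differed from each other. POLE (chr12:132623753-132687376, minus strand) encodes the catalytic subunit. It ranged from 37.6 over 42.1 to 47.9 CPM with R1881 + DMSO and was 36.3, 37.0, 44.7, 40.5 and 40.2 in libraries 81 to 85. Only 2 R1881 + DMSO libraries lay above the highest R1881 + enzalutamide library, which was library 83. The log2 fold change of POLE was -0.09, with a 95% interval from -0.21 to 0.03 (adjusted p = 0.196 from limma). The decrease of its median was 4.42%, and with equal library totals the log2 fold change was 0.005. POLE2 (chr14:49643555-49688422, minus strand), the B subunit that helps to anchor polymerase epsilon in the helicase complex, ranged from 5.72 over 7.20 to 8.95 CPM with R1881 + DMSO and was 5.14, 4.47, 3.58, 3.92 and 3.95 with R1881 + enzalutamide. The groups lay apart, with library 81 closest to the R1881 + DMSO range. Its log2 fold change was -0.71 (SE 0.093, adjusted p = 1.18e-06 from limma), from between 77 and 113 reads per R1881 + enzalutamide library.

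PCNA (chr20:5114953-5126626, minus strand), the clamp that tethers polymerases delta and epsilon to DNA, ranged from 149 over 159 to 182 CPM with R1881 + DMSO and was 101, 86.9, 83.3, 91.7 and 93.4 with R1881 + enzalutamide. The treatments were separated by a gap wider than the spread within the R1881 + enzalutamide group. The log2 fold change of PCNA was -0.81 (SE 0.050, adjusted p = 8.52e-12 from limma), a decrease of the median by 42.3%. Of 3 processed PCNA copies in the annotation, PCNAP3 had a row of its own in the table and PCNAP1 and PCNAP4 had none.

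The remaining subunits of polymerases delta and epsilon were measured beside the 10 genes. POLD4, the smallest subunit of polymerase delta, had a CPM of 2.25 ± 0.663 (SD, n = 10) with R1881 + DMSO and 2.11 ± 0.616 (SD, n = 5) with R1881 + enzalutamide, and did not pass the test (log2 fold change -0.07, 95% interval from -0.41 to 0.27, adjusted p = 0.726 from limma). POLE3 and POLE4 are histone-fold subunits of polymerase epsilon. POLE3 went from 112 ± 5.24 to 89.5 ± 3.96 CPM without overlap (log2 fold change -0.32, SE 0.039, adjusted p = 3.06e-07 from limma). POLE4 went from 21.9 ± 1.47 to 19.9 ± 1.03 CPM with overlap (log2 fold change -0.13, SE 0.053, adjusted p = 0.0354 from limma). This call of POLE4 was lost under 14 of 30 alternatives, among them the comparison with libraries 51 to 55 alone (log2 fold change -0.11, adjusted p = 0.117 from limma).

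**Figure D2:**
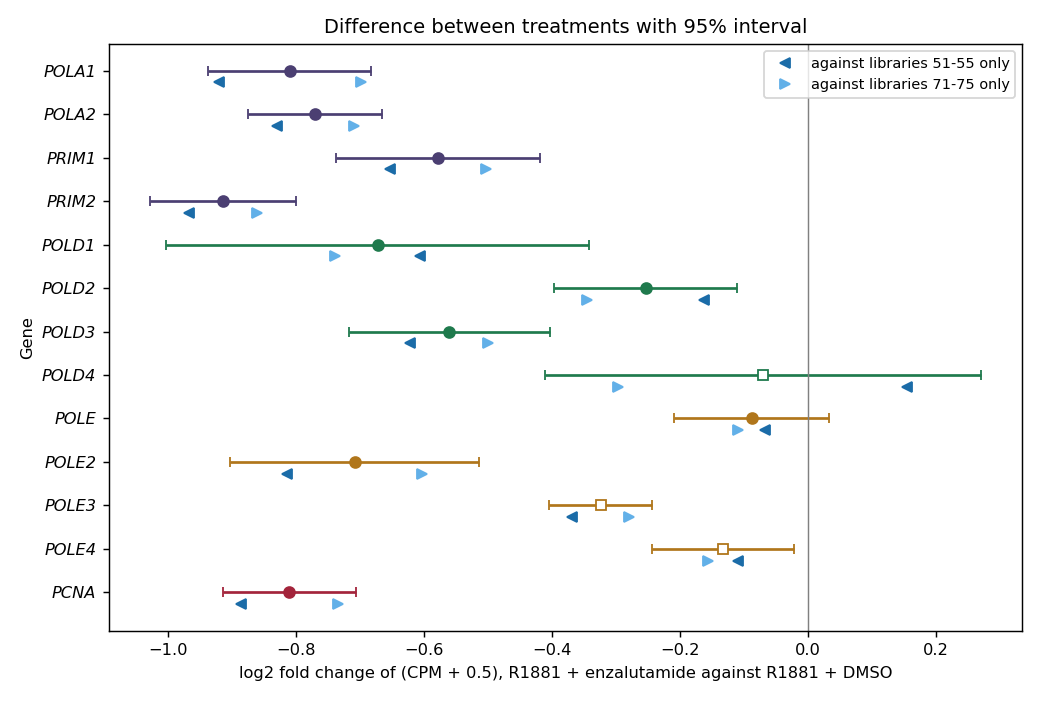
Log2 fold change of CPM + 0.5 with R1881 + enzalutamide against R1881 + DMSO (horizontal axis) for the 10 genes (filled circles) and for POLD4, POLE3 and POLE4 (open squares), with the 95% interval from limma as a bar. Triangles give the same value against R1881 + DMSO libraries 51-55 or 71-75 alone. The intervals of POLE and POLD4 include 0, and PRIM2 lies lowest at -0.91.

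Since library scaling cancels in a ratio of 2 genes of the same library, 13 ratios were compared between the treatments. Each was tested by exact permutation (two-sided, all 3003 regroupings), and p-values were adjusted by Benjamini-Hochberg over the 13 ratios. The adjusted p was under 0.05 for 7 of them. Unlike the scaling, the GC trend of a library does not cancel between genes of unlike GC content. The difference in GC content was 12.92 points for POLE to PCNA, -16.75 for POLE2 to POLE and -1.95 for PRIM1 to PRIM2. The part of the GC trend in the ratios was not tested. POLE relative to PCNA rose by 0.72 on the log2 scale, from -1.91 ± 0.163 (SD, n = 10) to -1.19 ± 0.205 (SD, n = 5). PRIM1 relative to PRIM2 rose by 0.34, from -0.79 ± 0.081 to -0.45 ± 0.151. In both ratios the libraries of the treatments did not overlap, and the permutation p of 0.000333 (adjusted 0.00217) was the smallest that this exact test can give.

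POLE2 relative to POLE fell by 0.62, from -2.48 ± 0.229 to -3.10 ± 0.295 (exact permutation test, adjusted p = 0.00433). POLD1 relative to POLD2 fell by 0.42 (adjusted p = 0.00779 from the same permutation test). Library 81 lay within the R1881 + DMSO range of the POLE2 to POLE ratio, and libraries 81, 83 and 84 within that of the POLD1 to POLD2 ratio. Within polymerase alpha-primase, PRIM1 rose relative to both POLA1 and POLA2, which fell relative to it by 0.23 (adjusted p = 0.00433, permutation) and 0.19 (adjusted p = 0.0402, permutation). POLA2 rose relative to PRIM2 by 0.14 (adjusted p = 0.0115, permutation). The POLA2 to PRIM1 ratio lost its call without any of 8 single libraries (R1881 + DMSO replicates 1, 3, 5, 8 and 10 and R1881 + enzalutamide replicates 1, 4 and 5), with an adjusted p of up to 0.118 from the permutation test.

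The log2 ratio of the catalytic subunit POLA1 to PCNA was -2.04 ± 0.086 with R1881 + DMSO and -2.04 ± 0.097 with R1881 + enzalutamide. The difference was 0.0009 (permutation p = 0.989), and it lay between -0.02 and 0.04 without each library in turn. POLA1 relative to POLA2 differed by -0.04 and POLA1 relative to PRIM2 by 0.10 (adjusted p = 0.553 and 0.0785, permutation). POLD2 relative to POLD3 differed by 0.31 (adjusted p = 0.0976, permutation), and without library 73 by 0.38 (adjusted p = 0.0173, permutation).

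**Figure D3:**
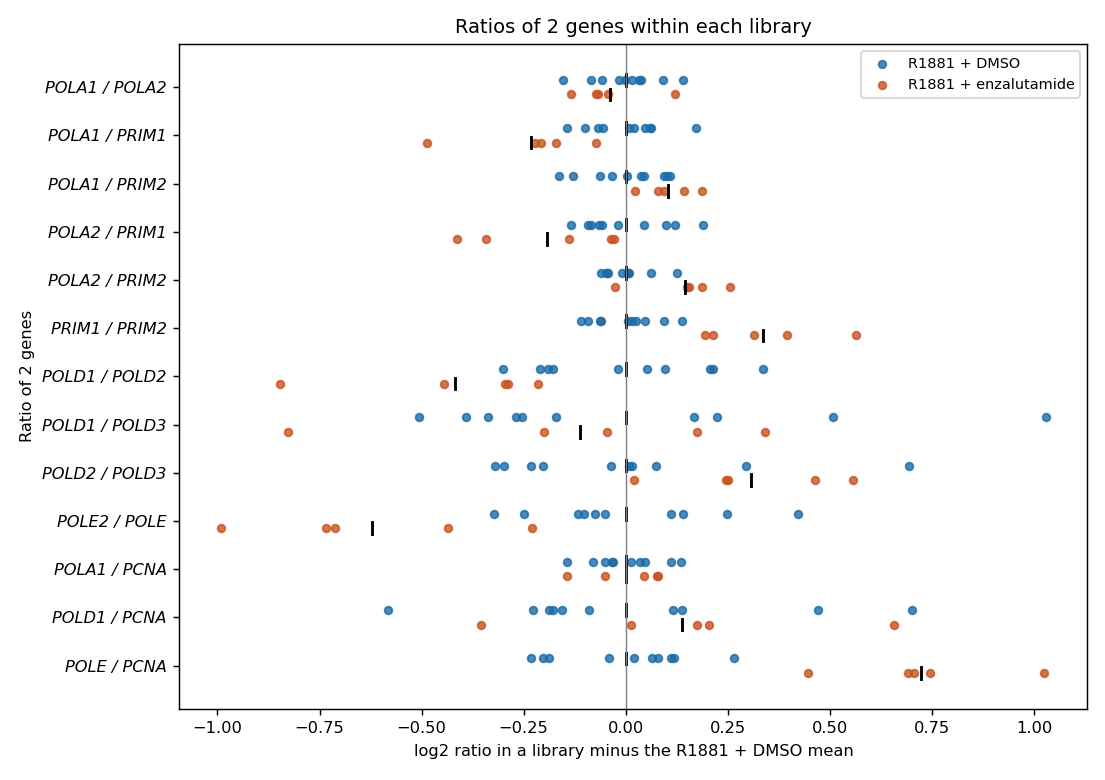
Log2 ratio of 2 genes in each library minus its mean over the R1881 + DMSO libraries (horizontal axis) for 13 ratios, with R1881 + DMSO (10 points) above and R1881 + enzalutamide (5 points) below on each line. Black ticks are group means. The groups lie apart for PRIM1 / PRIM2 and POLE / PCNA, while the means of POLA1 / PCNA lie next to each other.

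Levels can be compared between genes only per length, for which CPM was divided by the length of the canonical transcript in kb. With R1881 + DMSO, PCNA at 126 ± 8.42 CPM per kb (SD, n = 10) and POLD2 at 120 ± 13.2 were the highest, with overlapping ranges, and no other gene reached them. PRIM2 (12.1 ± 0.805) followed, and PRIM1 at 11.2 (from 9.99 to 12.8) overlapped with it. POLA2, POLA1, POLD3, POLE, POLE2 and POLD1 ranged from 8.33 down to 2.72 CPM per kb, and each neighbouring pair in this order overlapped.

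With R1881 + enzalutamide the order of the same levels was different. POLD2 at 100.4 ± 8.91 CPM per kb (SD, n = 5) lay above PCNA at 71.6 ± 5.36 with no overlap. PRIM1 (7.40 ± 0.913) came before PRIM2 (6.32 ± 0.430), with overlap, and POLE moved from the eighth to the fifth place at 5.08 ± 0.429. POLE2 at 2.49 ± 0.359 CPM per kb (up to 3.04) then lay below the whole range of POLE (from 4.65). With R1881 + DMSO the ranges of these 2 genes had overlapped, with POLE2 up to 5.29 and POLE from 4.80. The order depends on the length used. With the length of all annotated exons PCNA came first in both groups (114 and 65.1 CPM per kb, against 24.1 and 20.2 for POLD2), and 6 genes kept their place with R1881 + DMSO but 1 with R1881 + enzalutamide.

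Genes that work with these polymerases were grouped by role, and each list is given by its counts and its median beside the 32.7% of all genes called lower and the median of -0.01. Of 9 clamp loader and unloader genes, 8 were lower and none was higher, with a median log2 fold change of -0.58. The call of CHTF18 was lost under 4 of 30 alternatives, among them the comparison with libraries 51 to 55 alone (log2 fold change -0.31, adjusted p = 0.0909 from limma). RFC5, a small subunit of the clamp loader, had -0.74, and ATAD5, which unloads PCNA, had -0.73. The highest values were those of CHTF8 (-0.01, adjusted p = 0.875 from limma), part of the alternative loader, and RFC1 (-0.33), the large subunit of the clamp loader. Of 6 genes of Okazaki fragment maturation, 4 were lower and 1 was higher, with a median of -0.76. The flap endonuclease FEN1 had -1.35 and the helicase-nuclease DNA2 -0.86, whereas RNASEH2B, a subunit of the enzyme that cuts RNA out of DNA, rose by 0.40 and RNASEH2C was at 0.12 (adjusted p = 0.110 from limma).

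Of 12 factors that bind PCNA, 8 were lower and 1 was higher, with a median of -0.58. DTL, which directs PCNA-bound proteins to degradation, had -1.26, and UHRF1, which brings the maintenance DNA methyltransferase to new DNA, had -1.25. The cell cycle inhibitor CDKN1A, which binds PCNA, rose by 0.40, and POLDIP3 was at -0.04 (adjusted p = 0.400 from limma). Of 7 genes of single-strand DNA binding and alpha-primase partners, 4 were lower and 1 was higher (median -0.24). The lowest were MCM10 (-1.17) and WDHD1 (-0.66), which link polymerase alpha to the replication fork. The highest were CTC1 (0.39) and STN1 (0.12, adjusted p = 0.118 from limma), which recruit it to telomeres. STN1 was found under its older symbol OBFC1, and TEN1 was not analysed here.

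DNA polymerases outside bulk replication were measured as well. Of 9 translesion genes, 3 were lower and 1 was higher, with a median of -0.05. POLQ, the polymerase of theta-mediated end joining, had -0.79 and MAD2L2 -0.33, while REV3L, the catalytic subunit of polymerase zeta, rose by 0.30 and POLN was near 0 (adjusted p = 0.996 from limma). Of 3 gap-filling polymerases measured, POLB was lower (-0.44), POLL was higher (0.38) and POLM did not pass (-0.05, adjusted p = 0.650 from limma). Of 5 genes around the mitochondrial polymerase, POLG was lower (-0.46), its accessory subunit POLG2 was higher (0.48) and 3 did not pass, among them PRIMPOL (-0.12, adjusted p = 0.0750 from limma) and SSBP1 (0.0036, adjusted p = 0.952 from limma). The 7 genes that attach or remove modifiers of PCNA held 3 lower and 2 higher genes (median 0.09). RAD18, which ubiquitinates PCNA, had -0.75 and the deubiquitinase gene USP1 -0.28, while HLTF rose by 0.25 and UBE2A by 0.12, with the call of UBE2A lost under 2 of 30 alternatives. DNTT and TWNK were not analysed here.

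**Figure D4:**
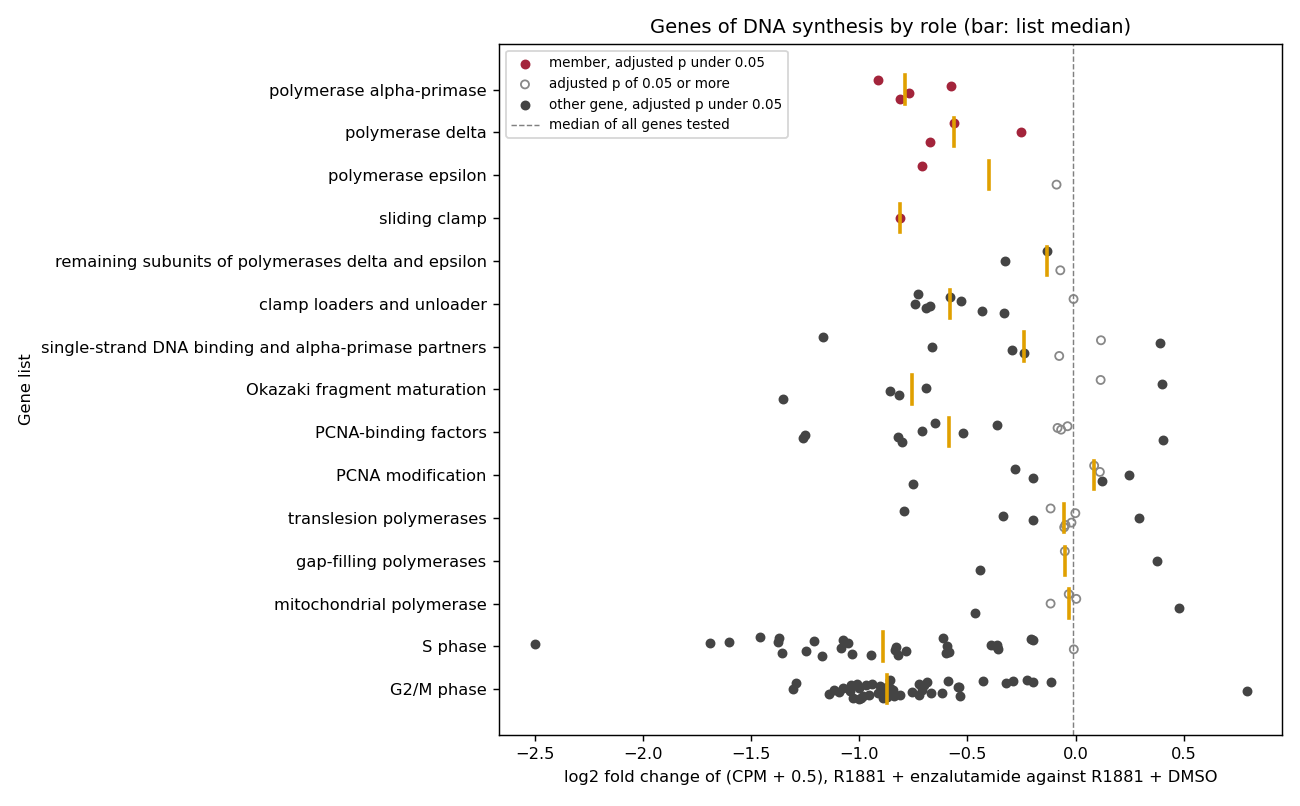
Log2 fold change of CPM + 0.5 with R1881 + enzalutamide against R1881 + DMSO (horizontal axis) for the genes of each list (vertical axis). Filled points passed the test at an adjusted p under 0.05 (red for the 10 genes), open points did not, and the bars are list medians. The medians of the polymerase alpha-primase, clamp loader, Okazaki and phase lists lie below -0.5 and those of the translesion, gap-filling, mitochondrial and PCNA modification lists lie within 0.1 of 0.

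Genes that mark cycling cells moved with the treatment. After removal of the genes above, 29 of 30 S phase genes were lower and none was higher (median -0.89), and their summed CPM went from between 1900 and 2289 with R1881 + DMSO to between 975 and 1098 with R1881 + enzalutamide. ATAD2 (-2.50) and the ribonucleotide reductase subunit RRM2 (-1.69) were the lowest, and TIPIN (-0.20) and POLR1B (-0.0079, adjusted p = 0.881 from limma) the highest. Of 51 G2/M phase genes, 50 were lower and 1 was higher (median -0.87), and the summed CPM went from between 3177 and 3810 to between 2072 and 2268. HJURP (-1.31) and ANLN (-1.29) were the lowest, ANP32E (0.79) was the gene that rose and CTCF was at -0.11. The call of CTCF was lost under 19 of 30 alternatives and that of TIPIN under 2. All 5 proliferation markers (MKI67, TOP2A, CCNB1, CCNA2 and CCNE2) were lower, and none was at 0. The part of these lists in the decrease of the 10 genes was not tested, and in bulk RNA fewer cells in S phase and less RNA per cell cannot be told apart.

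The R1881 + DMSO libraries 51 to 55 and 71 to 75 received the same treatment by their labels, and the 10 genes were compared between them with limma over 16810 genes. POLA1 and PCNA passed, both higher in libraries 51 to 55. Among all genes 3.29% passed, 2.43% higher and 0.857% lower in these libraries. These were 409 higher and 144 lower genes, against 432 and 439 with the GC trend removed and 563 and 441 with DESeq2. POLA1 had 42.0, 42.8, 40.1, 40.2 and 43.0 CPM in libraries 51 to 55 and 34.2, 36.2, 32.8, 36.1 and 39.2 in libraries 71 to 75 (log2 difference 0.22, SE 0.052, adjusted p = 0.0332 from limma). PCNA had 173, 182, 163, 162 and 165 CPM in the first series and 151, 154, 151, 156 and 149 in the second (log2 difference 0.15, SE 0.038, adjusted p = 0.0418 from limma). Neither gene overlapped between the series, as held for 4.81% of all genes in this direction and for 1.94% in the other. Both calls were lost without libraries 73 and 74, with adjusted p of 0.0928 and 0.0591 from limma. They were also lost without any of R1881 + DMSO replicates 4 to 10 alone, and that of PCNA without replicate 2. With the GC trend removed the log2 differences were 0.14 and 0.08 (adjusted p = 0.0510 and 0.181 from limma), and POLA2 was the gene that passed (log2 difference 0.16, adjusted p = 0.04999 from limma). Of the S phase genes 10 of 30, and of the G2/M phase genes 27 of 51, were likewise higher in libraries 51 to 55, and their part in this difference was not tested.

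Both genes were lower with enzalutamide than in either series. Against libraries 71 to 75 alone, the series in which POLA1 and PCNA were lower, the log2 fold change with enzalutamide was -0.70 for POLA1 and -0.74 for PCNA, and against libraries 51 to 55 alone it was -0.92 and -0.89. The 9 called genes passed against either series alone, with the highest adjusted p at 0.0171 for POLD2 against libraries 51 to 55 (log2 fold change -0.16, from limma).

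The spread of POLD1, POLD2, POLD3 and, less clearly, POLE within a treatment moved with the GC trend of the libraries. In the canonical transcript, GC content was 64.8% for POLD1, 59.4% for POLD2 and 56.4% for POLE, above the median of 47.9% over genes, and 42.6% for POLD3. In libraries 73 and 74, POLD1 was at 14.2 and 12.5 CPM and POLD2 at 233 and 223, above the other 8 R1881 + DMSO libraries. POLD3 was at 16.4 and 20.9 CPM there, below the other 8. POLE was highest of this group in library 73 (47.9 CPM) but at 42.9 in library 74, below libraries 54 and 55 (46.3 and 44.1). POLA2, with a GC content of 53.7%, had its lowest R1881 + DMSO value in library 73 (26.6 CPM). In library 83, POLD1, POLD2 and POLE had the highest values of the R1881 + enzalutamide group, and POLA1, PRIM1, POLE2 and PCNA the lowest. When the GC trend of each library was subtracted, an alternative chosen after the data had been seen, the log2 fold change of POLD2 was -0.21 with a standard error of 0.026 in place of 0.068, and its adjusted p was 6.82e-08 from limma. POLD1 was then at -0.65 (SE 0.085, adjusted p = 2.30e-07 from limma) and POLE at -0.05 (adjusted p = 0.210 from limma). The standard error also fell for POLA1 (from 0.061 to 0.047) and PCNA (from 0.050 to 0.039), while that of POLA2 stayed at 0.050. The same 9 genes passed.

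**Figure D5:**
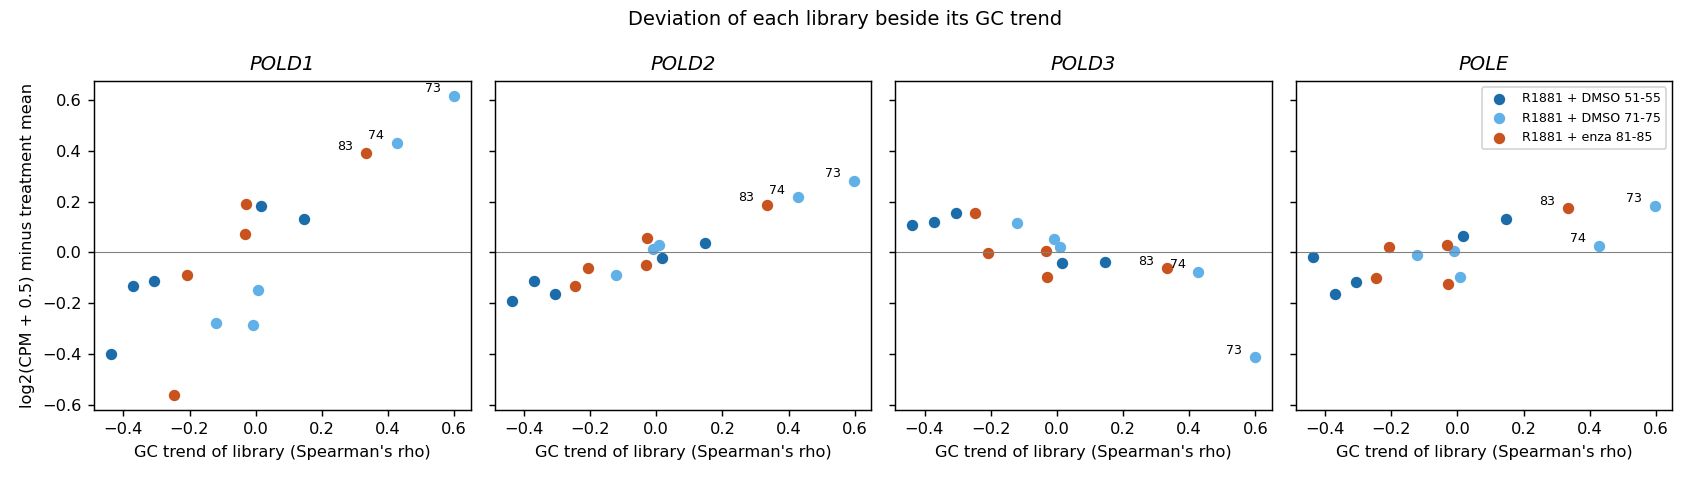
Deviation of each library from the mean of its treatment in log2(CPM + 0.5) (vertical axis) against the GC trend of the library, as Spearman's rho across 14489 genes (horizontal axis), for POLD1, POLD2, POLD3 and POLE. Points are libraries, colored by treatment and library series, and libraries 73, 74 and 83 are labelled. Library 73, with the highest rho of 0.60, has the highest POLD1 and POLD2 and the lowest POLD3 deviation.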

How the data were processed

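Total RNA of LNCaP cells was purified on poly-T beads and sequenced in 15 libraries (10 R1881 + DMSO, 5 R1881 + enzalutamide by the labels, which the methods give the other way round). Alignment to GRCh38 was by STAR and gene counting by featureCounts, and the authors deposited these counts as a normalized signal, named CPM in the methods. The sources used here leave out the versions of STAR and featureCounts, the gene annotation, strand use, the choice of the 17272 genes and the scaling rule. The deposited columns summed to between 985580 and 1078567, and 100% of the values were whole multiples of a single read within 0.01 reads, which gave back the read counts. All 55 pairs of libraries of a treatment differed beyond sampling noise (lowest chi-square per degree of freedom 1.64), so each entered as its own replicate. Whether they came from separate cultures is not shown by this.

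Gene-wise differences were computed with limma 3.58.1 (mean-variance trend, treatment or library series as the only term) in R 4.3.3, with read-based alternatives by edgeR 4.0.16 (quasi-likelihood) and by DESeq2 1.42.0, which called 10744 and 10552 of 17046 genes where limma called 10660. Ratios were tested in Python 3.11.15 with scipy 1.17.1. Lengths, positions and GC content are from GENCODE v44 on GRCh38, for 84.9% of the genes. The S and G2/M phase lists are those of Seurat 5.3.0. Scripts were tested on simulated data.

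The 10 genes and all lists were chosen with earlier results of these data known. Named are the 10 genes, POLD4, POLE3 and POLE4, the lowest 2 and highest 2 tested genes of each list of replication genes, the 3 androgen-induced genes, the markers of cell types and proliferation, and the 5 genes nearest in pattern. CHTF18 is named in addition for its unstable call. Alternatives covered the pseudocount, the filter, the scaling, the test, blocks for 2 kinds of replicate number, each R1881 + DMSO series and each library left out. The removal of the GC trend, the fits without libraries 73, 74 and 83 and the length of all exons were added after the data had been seen.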

Additional observations from a re-analysis of the deposited data

Results flagged for a closer look

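Among the values of single genes, POLD3 in library 73 (R1881 + DMSO replicate 6) stood far from the others of its group. It was at 16.43 CPM, where the nearest R1881 + DMSO library had 20.9 and the farthest 24.6. The gap made up 0.544 of the range of the group. Of 46 groups of values examined 1 was flagged, and chance alone flags about 2.3. Library 73 was also the library with the strongest GC trend, and the part of that trend in this value was not tested.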

How the results depend on the processing

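The count of 9 lower genes held under 30 alternatives within 1 gene (8 with equal library totals), and 298 of 300 gene values kept their direction and their side of the threshold. The exceptions were POLD2, whose call was lost with equal library totals, and POLE, whose difference was 0.0047 there. With a fold of 2 required in addition the count was 0. Without each library in turn it stayed at 9. The series comparison was less stable. Its count of 2 was 1 with median-ratio factors, with TMM factors and with the GC trend removed, 0 without libraries 73, 74 and 83, and 0 to 3 without each library in turn, with a call lost without R1881 + DMSO replicates 2, 4, 5, 6, 7, 8, 9 or 10. The call left with either scaling was that of POLA1. With the GC trend removed both calls were lost and POLA2 passed (log2 difference 0.16, adjusted p = 0.04999 from limma), and without R1881 + DMSO replicate 3 POLD2 passed as well (-0.23, adjusted p = 0.0434 from limma). Over all genes this comparison gave 553 calls from limma, 1004 from DESeq2 and 871 with the GC trend removed. Its difference changed sign for POLD1 (0.080 with the GC trend removed, 0.0035 without R1881 + DMSO replicate 6, 0.17 without libraries 73, 74 and 83), POLD3 (-0.0016 without those libraries) and POLE (0.035 with the GC trend removed, 0.013 without those libraries). None of these passed a test.

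The count of 7 ratios was 6 to 8 without single libraries. It was 0 against libraries 71 to 75 alone, where the lowest adjusted p was 0.0516 (exact permutation test). With 5 against 5 libraries this test cannot give a p under 0.00794. PRIM1 to PRIM2 and POLE to PCNA were at this limit there, with differences of 0.36 and 0.63, so the loss of their calls does not show a smaller difference. Ratios near 0 changed sign: POLA1 to POLA2 (0.011 against libraries 71 to 75), POLD1 to PCNA (-0.0046, the same setting), POLD1 to POLD3 (0.016 against libraries 51 to 55, -0.22 to 0.067 without each library) and POLA1 to PCNA (-0.0077 with a pseudocount of 0.1, -0.034 against libraries 51 to 55, -0.043 without libraries 73, 74 and 83, -0.019 to 0.037 without each library). In levels per length, 6 and 1 of 10 genes kept their place with the length of all exons.

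The replicate numbers of the titles and the last digits of the library numbers are shared between treatments. By title number the libraries did not deviate together (r from -0.11 to 0.13 over 5 pairs). By last digit r ranged from -0.64 (libraries 53 and 83) to 0.84 (libraries 73 and 83) over 10 pairs, so a shared digit gave no common direction. With either number as a replicate block 9 genes were called lower. In the series comparison the block on the last digit left 0 calls. In the ratios the block on the title number left 0, since 5 pairs cannot give a permutation p under 0.0625, and POLA1 to PCNA was at -0.031. The lowest read counts were 24 for POLD4 and 77 for POLD1 and for POLE2. The cause of these changes was not tested.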

Other observations

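After subtraction of the mean of each treatment, the genes whose log2(CPM + 0.5) moved most like the mean of the 10 genes over the 15 libraries, among 12154 genes averaging 5 CPM or more, were POTEH-AS1 (Pearson's r of 0.81), NBEAP3 (0.80), the mitotic kinase gene PLK1 (0.79), RP11-244H18.1 (0.79) and HAUS8 (0.75), a subunit of the augmin complex of the mitotic spindle. These are the highest of many correlations and are given as a description, since the libraries share series and GC trends. The 10 genes themselves did not share a common direction within a treatment. Their correlation was -0.86 for POLD2 and POLD3 and -0.62 for POLD2 and POLA1, but 0.67 for POLA1 and PCNA. With enzalutamide, PLK1 had a log2 fold change of -0.92 and HAUS8 of -0.81, near the values of POLA1 and PCNA, while POTEH-AS1 was at -3.83 and RP11-244H18.1 at -3.90.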
